A study of Homo sapiens with 20 samples.

Results

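The 10 genes described here encode the core of the BCL2 family: the pro-survival members BCL2, BCL2L1 (BCL-XL), MCL1 and BCL2A1, the BH3-only members BCL2L11 (BIM), PMAIP1 (NOXA), BBC3 (PUMA) and BID, and the effectors BAX and BAK1. They were taken from the table by gene symbol, and all 10 were found among the 18305 genes of the expression table. Bulk RNA sequencing had been done on 20 libraries in 10 groups of 2 biological replicates. WT and bortezomib-resistant (BtzR) cells were given for the myeloma lines AMO1, L363 and RPMI (RPMI-8226) and for ARH77, a B-lymphoblastoid line used beside them. Carfilzomib-resistant (CfzR) cells were given for AMO1 and L363. Every group shared the same serum-supplemented RPMI-1640 medium, and the resistant cells were kept in 90 nM of the drug to which they were resistant, while the WT cells had none. Each resistant group stood for 1 derived cell population, so lasting resistance and the presence of drug in the medium cannot be told apart.

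BCL2 family proteins decide whether the outer mitochondrial membrane is opened during apoptosis. BAX and BAK1 form the pores that release cytochrome c. Pro-survival members hold them in check, and BH3-only members, which are induced or activated by stress, bind the pro-survival members or activate BAX and BAK1. Plasma cells and myeloma cells commonly depend on MCL1. Bortezomib and carfilzomib block the proteasome, which normally degrades MCL1 and NOXA proteins, among others. The values here are RNA levels and do not measure those proteins.

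Before the results, the libraries labelled AMO1 CfzR need a remark. On log2(FPKM + 1) over 13089 genes, where FPKM (fragments per kilobase of transcript, scaled to library size) is the unit of the table, their Pearson correlation with the 6 L363 libraries was 0.986 to 0.992. With the other 4 AMO1 libraries it was 0.878 to 0.883, while replicates of a group correlated at 0.986 to 0.998. SDC1, a plasma cell marker, was at 233 and 224 FPKM in them, 188 to 231 in L363 and 1276 to 3266 in the other AMO1 libraries. Their values are therefore given beside both AMO1 WT and L363 WT, under the name "libraries labelled AMO1 CfzR". Of 6 plasma cell markers, SDC1 and PRDM1 separated all myeloma libraries (38.2 to 3266 and 11.3 to 41.9 FPKM) from ARH77 (8.4 to 9.9 and at most 1.67), and XBP1, IRF4, TNFRSF17 and CD38 did not. XBP1 was at 63.15 and 78.28 FPKM in AMO1 WT and 74.3 to 102 in ARH77, IRF4 at 60.68 and 66.11 in RPMI WT and 108.51 and 106.28 in ARH77 WT, and TNFRSF17 at 7.86 and 4.93 in RPMI BtzR and 18.4 to 21.3 in ARH77. The B cell markers MS4A1, CD22 and PAX5 stayed under 1 FPKM in all 16 myeloma libraries, while MS4A1 was at 57.7 to 78.9 in ARH77. CD79B, another B cell marker, reached 52.5 FPKM in AMO1. Summed for each cell type by itself, markers of T, myeloid and erythroid cells reached at most 12.8, 8.39 and 4.16 FPKM in any library. The T cell marker CD3E reached 10.66 FPKM in AMO1. The epithelial marker EPCAM was at 56.2 to 68.1 FPKM in the RPMI libraries.

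Reference promoters (RefSeq, GRCh38.p14, from 250 bases before to 50 bases after the gene start) were on hand for 9 of the 10 genes, MCL1 excepted, in 14 entries of 300 bases. Those of BCL2A1 and PMAIP1 are shown because both genes were much higher in ARH77 than in the myeloma lines, and those of BCL2 and BCL2L11 because both rose in AMO1 BtzR cells. They are written 5′ to 3′ on the gene's strand. Capitals mark matches, on either strand, to the TATA motif TATAAA, the CCAAT box, the GC box GGGCGG, the cyclic AMP response half-site TGACGT, the AP-1 site TGACTCA or the NF-kappaB consensus (by name), with no overlap between motifs in these windows. BCL2A1 lies at chr15:79971147-79971446 and PMAIP1 at chr18:59899746-59900045, on the minus and plus strand. BCL2 lies at chr18:63319720-63320019 and BCL2L11 at chr2:111120664-111120963, again on the minus and plus strand.
BCL2A1: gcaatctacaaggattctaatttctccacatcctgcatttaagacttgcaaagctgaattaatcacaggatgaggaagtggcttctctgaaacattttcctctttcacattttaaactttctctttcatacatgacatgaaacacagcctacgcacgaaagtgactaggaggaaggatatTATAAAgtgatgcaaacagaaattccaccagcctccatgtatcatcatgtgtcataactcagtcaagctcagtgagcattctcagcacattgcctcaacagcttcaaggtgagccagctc
PMAIP1: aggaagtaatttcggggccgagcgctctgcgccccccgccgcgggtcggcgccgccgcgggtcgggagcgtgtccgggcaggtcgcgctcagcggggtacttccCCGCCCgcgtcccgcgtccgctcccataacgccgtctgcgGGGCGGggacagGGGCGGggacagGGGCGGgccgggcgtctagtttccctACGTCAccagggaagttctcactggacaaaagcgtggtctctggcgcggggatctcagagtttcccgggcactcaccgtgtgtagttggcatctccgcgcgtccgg
BCL2: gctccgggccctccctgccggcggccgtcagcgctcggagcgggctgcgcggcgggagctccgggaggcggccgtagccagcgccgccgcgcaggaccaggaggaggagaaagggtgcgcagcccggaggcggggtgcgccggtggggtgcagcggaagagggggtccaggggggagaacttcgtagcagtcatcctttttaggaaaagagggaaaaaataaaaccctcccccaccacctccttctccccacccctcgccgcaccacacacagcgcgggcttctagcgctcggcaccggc
BCL2L11: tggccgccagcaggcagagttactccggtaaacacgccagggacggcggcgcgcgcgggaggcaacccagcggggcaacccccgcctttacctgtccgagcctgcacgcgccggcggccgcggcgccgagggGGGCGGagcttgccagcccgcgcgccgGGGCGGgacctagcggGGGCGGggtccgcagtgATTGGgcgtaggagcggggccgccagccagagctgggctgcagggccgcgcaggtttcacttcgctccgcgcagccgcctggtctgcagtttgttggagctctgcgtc

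The 4 windows differed in base composition. BCL2A1 had 41% G and C and 2 CpG dinucleotides, against medians of 58.7% and 14 over all 35116 promoters of the same length. It held 1 TATAAA, a motif found in 11.5% of all promoters, and none of the others searched. PMAIP1 had 71.3% G and C, 42 CpG dinucleotides, 4 GGGCGG matches (present in 45% of all promoters) and 1 TGACGT match (7.98%). BCL2L11 had 74.7% G and C, 39 CpG dinucleotides, 3 GGGCGG matches and 1 CCAAT match (34.6%). BCL2, with 70.7% G and C and 31 CpG dinucleotides, held none of the 6 motifs. TGACTCA, in 4.95% of all promoters, and the NF-kappaB consensus, in 5.91%, had no match in these 4 windows. The promoters of BCL2 and BCL2L11 thus shared a high CpG content and no searched motif. A high CpG content was not particular to genes that rose in AMO1 BtzR. PMAIP1 (42) and BAX (38), which were not called as higher there, had similar counts. BCL2L1, which also rose there and is not shown, had 16 CpG dinucleotides and 1 GGGCGG match in an entry and 20 and 2 TATAAA matches in another. These matches describe letters and not binding.

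The first comparison was of the 4 lines before resistance, in WT cells. Members were tested with limma on log2(FPKM + 1) across all 13089 genes that reached a group mean of 1 FPKM in at least 1 group. All 10 members passed that filter, BCL2A1 through ARH77 only. A gene was called where the Benjamini-Hochberg adjusted p was under 0.05 and the log2 difference was at least 1 in size, and calls by the adjusted p alone are given beside. Since that filter fixed a difference between lines for BCL2A1, its levels are described and left out of the counts between lines. BCL2A1 stays among the 10 members where resistant cells are compared with WT cells. In the myeloma lines it did not exceed 0.22 FPKM, so on log2(FPKM + 1) it could not be called there. The WT level differed between lines for 8 of the other 9 members, BCL2 excepted, where 52.2% of all genes were called, and for all 9 by adjusted p alone, where 92.6% were. The median range between the highest and lowest line was 1.83 on the log2 scale for these 9 members and 1.04 for all genes tested.

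**Figure D1:**
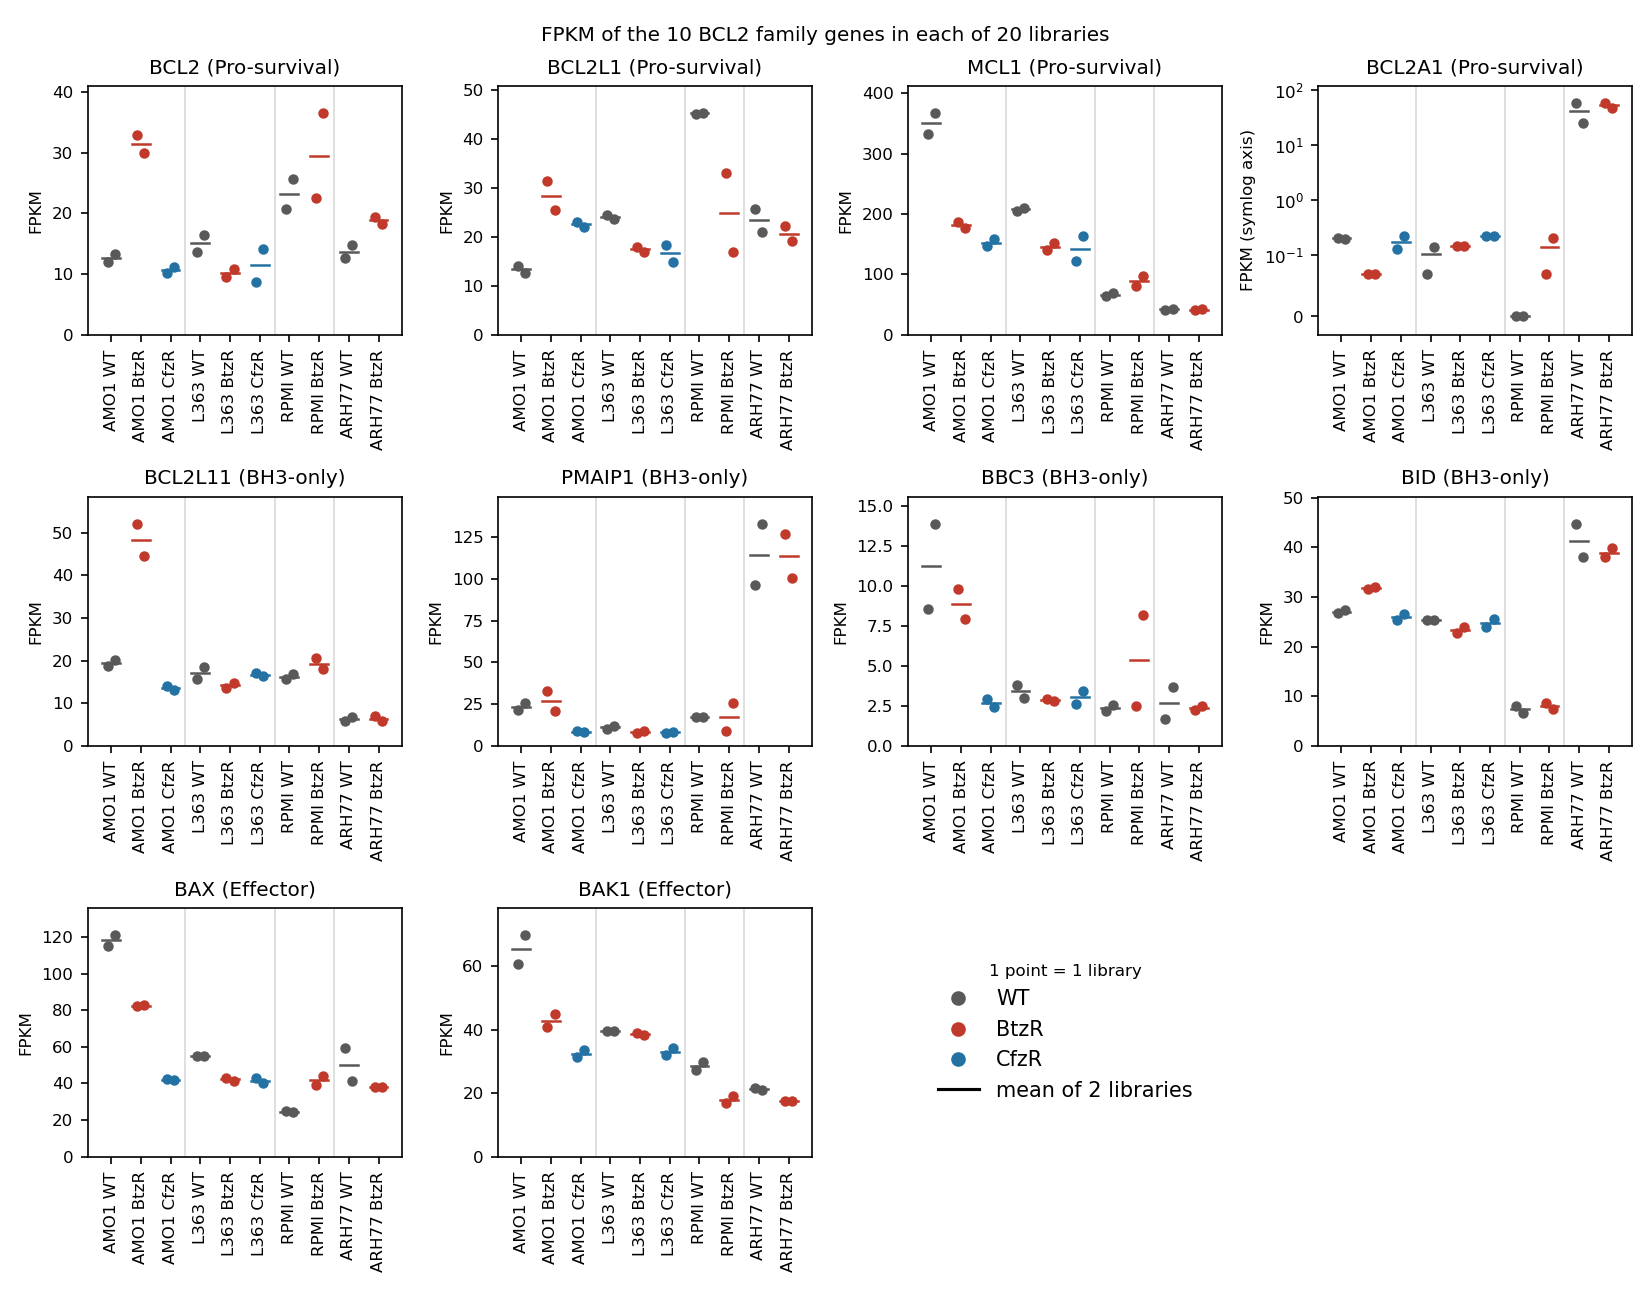
FPKM (vertical axis) of each of the 10 genes in the 10 groups (horizontal axis), with 1 point per library and a line at the mean of 2 libraries, where the BCL2A1 axis is linear near 0 and logarithmic above (symlog). The 4 ARH77 libraries stand apart for BCL2A1 (25.0 to 59.9 FPKM) and PMAIP1 (96.1 to 133), AMO1 WT for MCL1 (334 and 368) and AMO1 BtzR for BCL2L11 (44.6 and 52.1).

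MCL1 was the most abundant member in myeloma cells and separated all 4 lines. It was at 333.50 and 368.09 FPKM in AMO1 WT, 205.37 and 209.91 in L363 WT, 63.58 and 68.80 in RPMI WT and 41.56 and 43.00 in ARH77 WT. None of these lines overlapped another, and the range was 3.02 on the log2 scale (adjusted p = 8.3e-12, limma F test). BCL2A1 showed the opposite pattern. This pro-survival gene, a known target of NF-kappaB in B cells, was at 58.43 and 25.03 FPKM in ARH77 WT and at 59.92 and 48.16 in ARH77 BtzR. In the 16 myeloma libraries it did not exceed 0.22 FPKM. In 2 of these it was listed at 0, and in the other 14 it was within 0.015 FPKM of 1, 2 or 3 times the smallest value of 0.07. BCL2 varied least: 12 and 13.39 FPKM in AMO1 WT, 13.57 and 16.53 in L363 WT, 20.69 and 25.67 in RPMI WT and 12.62 and 14.78 in ARH77 WT. Its range of 0.81 (log2) passed the adjusted p alone (0.0090), and not without RPMI WT replicate 2 (0.67, adjusted p = 0.14). BCL2L1 was highest in RPMI WT, at 45.12 and 45.31 FPKM, and lowest in AMO1 WT, at 14.09 and 12.55.

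The makeup of pro-survival RNA thus differed by line, since FPKM values are per length and can be set side by side. MCL1 made up 92.7% and 93.4% of the summed FPKM of the 4 pro-survival genes in the AMO1 WT libraries and 84.4% and 83.9% in L363 WT. In RPMI WT its share was 49.1% and 49.2%, with BCL2L1 at 34.9% and 32.4%. In ARH77 WT the shares of MCL1 were 30.1% and 41.4% and those of BCL2A1 were 42.3% and 24.1%. BCL2A1 was the largest of the 4 in 3 of the 4 ARH77 libraries, and MCL1 was in the remaining one and in all 16 myeloma libraries.

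**Figure D2:**
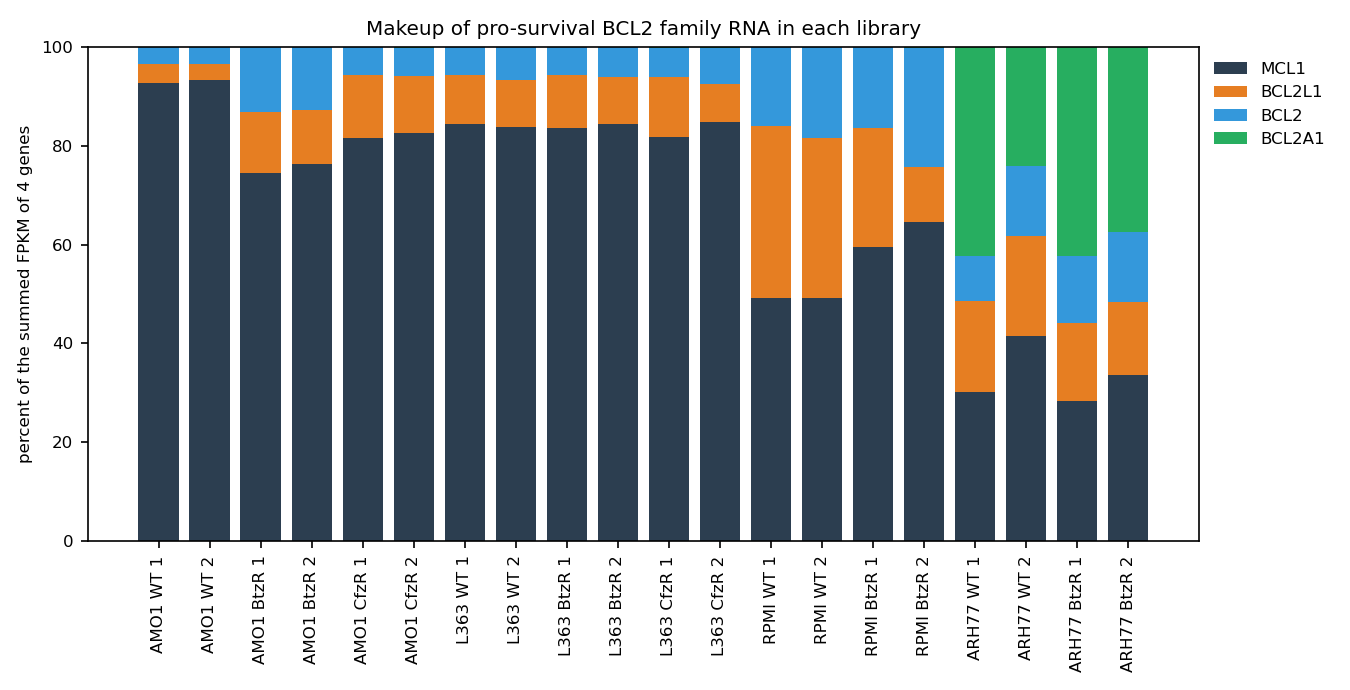
Stacked bars give, for each of the 20 libraries (horizontal axis), the percent of the summed FPKM of MCL1, BCL2L1, BCL2 and BCL2A1 that each gene made up (vertical axis). MCL1 falls from 92.7% and 93.4% in AMO1 WT to 74.4% and 76.2% in AMO1 BtzR, and BCL2A1 appears in the 4 ARH77 libraries, at 24.1% to 42.3%.

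Among BH3-only genes, PMAIP1 and BID were highest in ARH77 and BCL2L11 was lowest there. PMAIP1, whose NOXA protein binds MCL1 and BCL2A1, was at 96.12 and 133.15 FPKM in ARH77 WT, 21.24 and 25.52 in AMO1 WT, 16.97 and 17.38 in RPMI WT and 10.02 and 12 in L363 WT. BID, which caspase-8 cleaves to link death receptors to mitochondria, was at 44.78 and 37.98 FPKM in ARH77 WT and at 7.98 and 6.65 in RPMI WT. AMO1 WT and L363 WT lay between, at 25.30 to 27.41. BCL2L11, whose BIM protein binds all pro-survival members, was at 5.70 and 6.66 FPKM in ARH77 WT and at 15.55 to 20.17 in the 6 myeloma WT libraries. BBC3, best known as a p53 target, was at 8.55 and 13.87 FPKM in AMO1 WT and at 1.68 to 3.82 in the WT libraries of the other 3 lines. The AMO1 WT library with more BBC3 also had more DDIT3, a stress-response gene (39.95 against 22.49), whose part was not tested.

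Both effectors were highest in AMO1 WT. BAX was at 115.27 and 121.24 FPKM there, 54.98 and 54.99 in L363 WT, 59.14 and 41.21 in ARH77 WT and 24.80 and 24.28 in RPMI WT. BAK1 was at 60.66 and 70.00 FPKM in AMO1 WT, 39.78 and 39.55 in L363 WT, 27.32 and 29.76 in RPMI WT and 21.76 and 20.93 in ARH77 WT. The summed FPKM of BAX and BAK1 was 176 and 191 in AMO1 WT and 52.1 and 54.0 in RPMI WT. BAX exceeded BAK1 in every WT library but the RPMI ones, where the ratio of BAX to BAK1 was 0.908 and 0.816.

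Set as the mean of the 3 myeloma WT groups against ARH77 WT, 4 of the 9 members other than BCL2A1 were called, where 22.3% of all genes were. MCL1 (log2 difference 1.97 ± 0.10 SE) and BCL2L11 (1.37 ± 0.09) were higher in the myeloma lines. PMAIP1 (-2.71 ± 0.26) and BID (-1.21 ± 0.08) were lower, with adjusted p-values for the 4 from 8.8e-11 to 2.8e-07. By adjusted p alone 5 of the 9 passed, where 73.1% of all genes did, and the fifth was BAK1 (0.94, adjusted p = 1.1e-08). BBC3 (0.66, adjusted p = 0.051) was called without ARH77 WT replicate 2 (1.06) and passed by adjusted p alone without AMO1 WT replicate 1 (0.77), and BAX (0.14, adjusted p = 0.20) passed by adjusted p alone without ARH77 WT replicate 1 (0.39). These means join unequal lines, and single lines were not tested against ARH77 WT. BID was at 44.78 and 37.98 FPKM in ARH77 WT and at 7.98 and 6.65 in RPMI WT. In AMO1 WT and L363 WT BID was at 25.30 to 27.41. MCL1 was at 63.58 and 68.80 in RPMI WT against 41.56 and 43.00 in ARH77 WT. The lines stand for 3 tumors and 1 B-lymphoblastoid culture, so n counts libraries and not independent lines.

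The order of the 10 group means could often not be resolved. For BBC3 all 9 neighbouring pairs of groups overlapped in their libraries, and for BCL2 7 of 9 did. Among the 10 members, MCL1 and BAK1 were the best resolved, with 3 and 2 overlapping pairs. Overlaps were not counted for all genes, so whether these counts are unusual is unknown. MCL1 descended without overlap from AMO1 WT (mean 351 FPKM) through L363 WT (208), AMO1 BtzR (183) and the libraries labelled AMO1 CfzR (152). These last overlapped L363 BtzR (146), which overlapped L363 CfzR (143). Below them, without overlap, followed RPMI BtzR (89.5), RPMI WT (66.2) and the ARH77 groups, which overlapped each other (42.3 and 41.6). For PMAIP1 the step from ARH77 BtzR (mean 114 FPKM) to the next group, AMO1 BtzR (26.6), was the only wide one. For BCL2L11 AMO1 BtzR (48.4) stood above AMO1 WT (19.5).

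In AMO1 cells, bortezomib resistance went with higher BCL2, BCL2L1 and BCL2L11 RNA and with lower MCL1, BAX and BAK1. Called were 3 of 10 members, all higher, where 9.18% of all genes were called, and 6 passed by adjusted p alone, where 51.2% did. The members' median difference was -0.01 (log2) and that of all genes -0.0017. BCL2 was at 33.01 and 29.90 FPKM in AMO1 BtzR against 12 and 13.39 in AMO1 WT, a log2 difference of 1.24 ± 0.21 (SE, adjusted p = 0.00021, limma). BCL2L11 was at 52.12 and 44.64 against 18.76 and 20.17 (1.27 ± 0.11, adjusted p = 4.7e-07). BCL2L1 was at 31.32 and 25.45 against 14.09 and 12.55 (1.03 ± 0.21, adjusted p = 0.00098). For all 3 genes both BtzR libraries lay above both WT libraries, but the share of all genes that did so was not computed. RNAs of pro-survival and of pro-apoptotic type thus rose in the same cells. The BCL2L1 call was at the edge of the fold limit: the difference was 0.89 without AMO1 BtzR replicate 1 and 0.95 without AMO1 WT replicate 2.

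MCL1 lay just short of the fold limit, at 187.33 and 177.70 FPKM in AMO1 BtzR against 333.50 and 368.09 in AMO1 WT (-0.94 ± 0.12, adjusted p = 1.2e-05). It was called without AMO1 WT replicate 1 (-1.01). BAX, at 82.10 and 82.91 against 115.27 and 121.24, differed by -0.51 ± 0.12 (adjusted p = 0.0020), and BAK1, at 40.80 and 45.01 against 60.66 and 70.00, by -0.59 ± 0.08 (adjusted p = 4.5e-05). These 3 did not overlap between the groups, but the share of all genes without overlap there was not computed. Per FPKM of BCL2 there were 27.8 and 27.5 of MCL1 in AMO1 WT and 5.67 and 5.94 in AMO1 BtzR. Per FPKM of BCL2L11 there were 17.8 and 18.2 of MCL1 before and 3.59 and 3.98 in the resistant cells, the latter close to the 4.09 and 4.08 of RPMI WT. BID (31.65 and 32.09 against 26.72 and 27.41 FPKM) did not pass (adjusted p = 0.064). PMAIP1 and BBC3 overlapped between the groups, with 95% intervals of -0.54 to 0.85 and -1.04 to 0.47 (log2). Of the 6 plasma cell markers, SDC1 (-1.22) and CD38 (-1.04) were called as lower in the same cells, and PRDM1 (0.52, adjusted p = 0.024) passed by adjusted p alone in the other direction. Of the markers of other cell types, CD3E (-2.33) and CD79B (-1.06) were called as lower. The part of these markers in the members' differences was not tested.

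**Figure D3:**
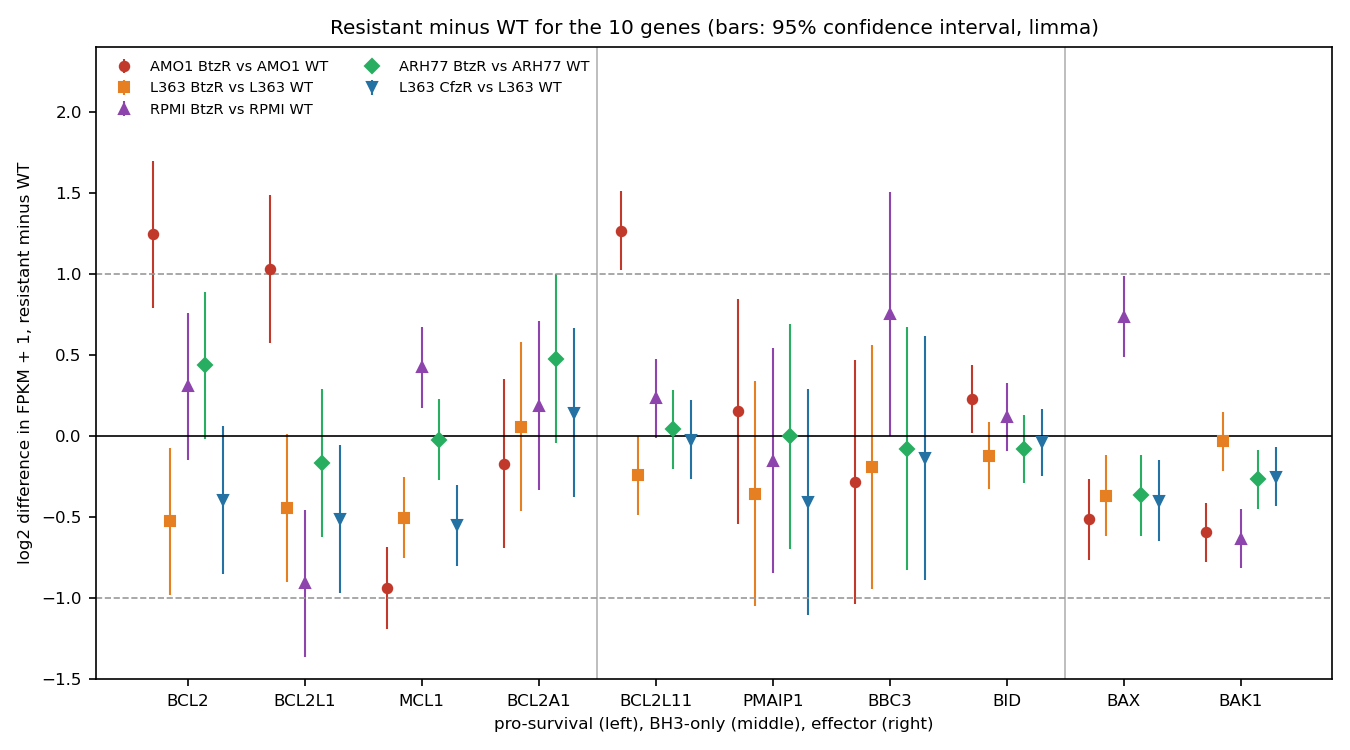
Log2 difference in FPKM + 1 between resistant and WT cells (vertical axis) for the 10 genes (horizontal axis) in 5 comparisons, with 95% confidence intervals from limma and dashed lines at the fold limit of 1. BCL2 (1.24), BCL2L1 (1.03) and BCL2L11 (1.27) in AMO1 lie above the upper dashed line, and BAX is above 0 in RPMI (0.74) and below 0 in the other 4 comparisons.

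In RPMI cells no member was called, where 13.8% of all genes were, and 4 passed by adjusted p alone, where 54.3% did; 5 had an unadjusted p under 0.05 in limma, where 58.9% of all genes did. The members' median was 0.21 and that of all genes 0.05. BAX was at 39.28 and 43.98 FPKM in RPMI BtzR against 24.80 and 24.28 in RPMI WT (0.74 ± 0.12, adjusted p = 8.5e-05). BAK1 moved the other way, at 17.01 and 19.06 against 27.32 and 29.76 (-0.63 ± 0.08, adjusted p = 1.7e-05). The ratio of BAX to BAK1, below 1 in RPMI WT, was 2.31 in both BtzR libraries, while the sum of the 2 genes was 56.3 and 63.0 FPKM against 52.1 and 54.0. MCL1 was higher, at 81.45 and 97.55 against 63.58 and 68.80 FPKM (0.43 ± 0.12, adjusted p = 0.0066). It did not pass without RPMI BtzR replicate 2 (0.30, adjusted p = 0.081) or RPMI WT replicate 1 (0.37, adjusted p = 0.057). The plasma cell markers TNFRSF17 (7.86 and 4.93 FPKM against 94.0 and 98.13) and CD38 (2.43 and 3.02 against 45.6 and 56.71) fell in the same cells, while IRF4 (0.64), PRDM1 (0.58) and XBP1 (0.43) were higher by adjusted p alone. Of the markers of other cell types, CD79B (-1.72), HBA1 (-1.62) and HBA2 (-1.01) were called as lower. The part of these markers in the members' differences was not tested.

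The 2 RPMI BtzR libraries differed from each other for several members. BCL2L1 was at 33.01 and 16.79 FPKM in them against 45.12 and 45.31 in RPMI WT (-0.91 ± 0.21, adjusted p = 0.0022). BBC3 was at 2.47 and 8.19, PMAIP1 at 9.03 and 25.64 and BCL2 at 22.49 and 36.63. The stress-response transcription factors differed between the same libraries, with ATF4 at 208.64 and 626.14 FPKM, DDIT3 at 3.73 and 19.06 and ATF3 at 2.12 and 16.87. Their part in the spread of the members was not tested. Without RPMI BtzR replicate 1, 2 members were called, BCL2L1 and BBC3, and the BBC3 difference was 1.46 (adjusted p = 0.0011) where it was 0.75 (adjusted p = 0.084) with both, and BCL2 passed by adjusted p alone (0.65, adjusted p = 0.024). Without RPMI BtzR replicate 2, PMAIP1 passed by adjusted p alone in the lower direction (-0.86, adjusted p = 0.0090). In all 10 groups, the replicate with more DDIT3 also had more PMAIP1 in 8 and more BBC3 in 7, but it also had more BCL2 in 9, more MCL1 in 8 and more BAK1 in 7. These genes were chosen after their values were seen, and the counts are a description.

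In L363 cells, where BtzR and CfzR cells share the same 2 WT libraries, no member was called in either comparison. For BtzR 2.06% of all genes were called and 11.2% passed by adjusted p alone. For CfzR the shares were 1.93% and 8.47%. Members at an unadjusted p under 0.05 in limma numbered 3 for BtzR, where 23.5% of all genes had one, and 4 for CfzR, where 18.8% did. The members' median was -0.30 for BtzR and -0.32 for CfzR, with all genes at 0 and -0.0040. Among the cell type markers, CD79B was called as higher in BtzR (1.01), where TNFRSF17 (-0.61) passed by adjusted p alone. In CfzR CD79B (0.95) and HBA1 (0.42) passed by adjusted p alone, both higher. The part of these markers was not tested. MCL1 was the 1 member to pass by adjusted p alone in BtzR and was joined by BAX in CfzR. MCL1 was at 140.82 and 151.26 FPKM in L363 BtzR and 122.48 and 163.29 in L363 CfzR against 205.37 and 209.91 in L363 WT. The differences were -0.51 ± 0.12 (adjusted p = 0.010) and -0.55 ± 0.12 (adjusted p = 0.0065). In BtzR MCL1 no longer passed without L363 BtzR replicate 1 (-0.45, adjusted p = 0.096), L363 WT replicate 1 (-0.52, adjusted p = 0.061) or L363 WT replicate 2 (-0.49, adjusted p = 0.075). In CfzR it no longer passed without L363 CfzR replicate 1 (-0.34, adjusted p = 0.11) or L363 WT replicate 2 (-0.53, adjusted p = 0.057). BAX, at 43.13 and 41.53 FPKM in BtzR and 42.82 and 40.15 in CfzR against 54.98 and 54.99 in WT, was at adjusted p = 0.057 and 0.049. The CfzR value of BAX did not pass when any 1 of the 4 libraries was left out (adjusted p = 0.12 to 0.24).

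The libraries labelled AMO1 CfzR gave a different account with each WT group. Against AMO1 WT, 4 members were called, all lower, where 17.1% of all genes were called, and 7 passed by adjusted p alone, where 57.7% did. The members' median was -0.74 and that of all genes -0.03. The called members were BBC3 (2.93 and 2.44 FPKM, log2 difference -1.70 ± 0.35, adjusted p = 0.00077), BAX (42.50 and 41.69, -1.47 ± 0.12, adjusted p = 5.0e-08), PMAIP1 (8.62 and 8.03, -1.38 ± 0.32, adjusted p = 0.0020) and MCL1 (146.80 and 158.13, -1.20 ± 0.12, adjusted p = 5.1e-07). BAK1 (-0.98 ± 0.08) was called as well without AMO1 WT replicate 1 (-1.09) or AMO1 CfzR replicate 2 (-1.03). Against L363 WT none was called, where 1.66% of all genes were, 5 had an unadjusted p under 0.05 in limma, where 16.5% of all genes did, and MCL1 alone passed by adjusted p (-0.44 ± 0.12, adjusted p = 0.032), where 6.92% did. MCL1 did not pass there without any 1 of the 4 libraries (adjusted p = 0.092 to 0.25). The 4 members called against AMO1 WT were also lower in L363 WT than in AMO1 WT, without overlap: BBC3 was at 3.82 and 3.0 FPKM in L363 WT, BAX at 54.98 and 54.99, PMAIP1 at 10.02 and 12 and MCL1 at 205.37 and 209.91. The share of all genes with such a gap was not computed. Between the WT cells of the 4 lines, 92.6% of all genes differed by adjusted p alone. The libraries labelled AMO1 CfzR lay below those L363 WT values as well. Of the cell type markers, SDC1 (-3.74), CD3E (-3.25) and XBP1 (3.20) were called against AMO1 WT, and CD79B (1.41) against L363 WT. Their part was not tested. A difference between lines and a difference by resistance cannot be told apart for these libraries.

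In ARH77 cells no member was called and none passed by adjusted p alone, where 1.6% and 13.6% of all genes did. In limma, 2 members, BAX and BAK1, had an unadjusted p under 0.05, where 26.7% of all genes did. The plasma cell marker CD38 was called as lower in the same cells (-1.46), and its part was not tested. The members' median was -0.05 and that of all genes -0.04. MCL1 was at 40.21 and 43.09 FPKM in ARH77 BtzR against 41.56 and 43.00 in ARH77 WT, with a 95% interval of -0.27 to 0.23. BCL2L11 was at 6.96 and 5.82 against 5.70 and 6.66 (interval -0.20 to 0.28). BAK1 was at 17.66 and 17.50 against 21.76 and 20.93 (-0.27, adjusted p = 0.052), without overlap. How many of all genes had such a gap was not computed. The ARH77 WT replicates differed for BCL2A1 (58.43 and 25.03 FPKM) and BAX (59.14 and 41.21). Without ARH77 WT replicate 1, BCL2A1 was called as higher in BtzR (1.07, where it was 0.48 with both), and without ARH77 WT replicate 2 the BAX difference was -0.62 (adjusted p = 0.00012) where it was -0.37 (adjusted p = 0.051) with both. ARH77 WT replicate 2 also had more DDIT3 (24.23 against 9.17 FPKM), whose part was not tested.

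Whether the BtzR effect differed between the 4 lines was tested with an F test on the interaction. It was called for 5 of 10 members, where 32.6% of all genes were, and 6 passed by adjusted p alone, where 71.1% did. The largest range was that of BCL2L1, from 1.03 in AMO1 to -0.91 in RPMI. BCL2 ranged from 1.24 in AMO1 to -0.53 in L363, BCL2L11 from 1.27 in AMO1 to -0.24 in L363, MCL1 from 0.43 in RPMI to -0.94 in AMO1, and BAX from 0.74 in RPMI to -0.51 in AMO1. The median range was 1.14 for the members and 0.76 for all genes. Single libraries added members: BBC3 was also called without RPMI BtzR replicate 1 (range 1.74) and PMAIP1 without RPMI BtzR replicate 2 (1.01). BCL2A1, kept among the 10 here, did not exceed 0.22 FPKM in the myeloma libraries, so its range rests mainly on ARH77. It was called without ARH77 WT replicate 1 (range 1.24), and the ARH77 WT replicates were at 58.43 and 25.03 FPKM.

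Averaged over the 4 lines, no member was called as changed, where 1.7% of all genes were; 5 had an unadjusted p under 0.05 in limma, where 57.6% of all genes did, and 4 passed by adjusted p alone, where 52.3% did. Lower were BAK1 (-0.38 ± 0.04, adjusted p = 3.7e-06) and MCL1 (-0.26 ± 0.06, adjusted p = 0.0018). The MCL1 mean joins unlike lines: -0.94 in AMO1, -0.51 in L363, -0.02 in ARH77 and 0.43 in RPMI. Higher were BCL2 (0.37 ± 0.11, adjusted p = 0.0097) and BCL2L11 (0.32 ± 0.06, adjusted p = 0.00025), for which AMO1 gave the largest share. BCL2 differed by 1.24 in AMO1, 0.44 in ARH77, 0.31 in RPMI and -0.53 in L363. BCL2L11 differed by 1.27 in AMO1, 0.23 in RPMI, 0.04 in ARH77 and -0.24 in L363. By adjusted p alone, BCL2A1 also passed without ARH77 WT replicate 1 (0.29), BAX without ARH77 WT replicate 2 (-0.19), BCL2L1 without RPMI BtzR replicate 1 (-0.24) and PMAIP1 without RPMI BtzR replicate 2 (-0.27). The BCL2A1 value rests mainly on ARH77, since this gene did not exceed 0.22 FPKM in the myeloma libraries. BAK1 was the 1 member whose BtzR libraries lay below the WT libraries in each of the 4 lines, as did 1.89% of all genes, and no member lay above in all 4, as did 1.53%. In L363 that gap was small, with 39.14 and 38.42 FPKM against 39.78 and 39.55, and the sign of the L363 difference (-0.03) turned under both other scalings.

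Of the 15 other BCL2 family genes listed, 11 were tested, and 5 were called in at least 1 comparison of resistant cells with the WT group of the same label, or 3 without the libraries labelled AMO1 CfzR. BMF, a BH3-only gene, fell in AMO1 BtzR (1.49 and 1.33 FPKM against 3.16 and 6.77, log2 difference -1.24) and in RPMI BtzR (0.13 and 0.65 against 3.30 and 3.95, -1.76). BNIP3, a mitophagy receptor with a BH3-like stretch, rose in RPMI BtzR (27.25 and 48.84 against 15.06 and 14.75, 1.24), and MOAP1, which binds BAX, rose there too (12 and 16.51 against 5.87 and 5.86, 1.14). BCL2L2 was called in no BtzR comparison. Its BtzR libraries lay above the WT libraries in each of the 4 lines, as did those of 1.53% of all genes. It was at 4.85 and 5.03 FPKM against 2.34 and 2.53 in AMO1, and at 5.72 and 5.44 against 4.21 and 5.07 in L363. RPMI had 4.08 and 3.79 against 2.05 and 2.66, and ARH77 10.89 and 11.13 against 4.28 and 6.06. This gene was picked out after its values were seen. In the libraries labelled AMO1 CfzR, set against AMO1 WT, BNIP3 differed by 3.88. It was at 16.91 and 15.93 FPKM in them, at 0.23 or less in AMO1 WT and AMO1 BtzR, and at 12.55 and 18.10 in L363 WT. BIK (-1.65), BMF (-1.56) and BCL2L2 (1.07) were called in the same comparison. BIK was at 2.33 and 2.45 FPKM in these libraries and 1.51 and 1.69 in L363 WT, BMF at 0.95 and 0.90 against 1.03 and 1.26, and BCL2L2 at 6.40 and 5.99 against 4.21 and 5.07. None of the 11 was called against L363 WT, where 1.66% of all genes were, and 2 had an unadjusted p under 0.05 in limma, where 16.5% of all genes did. In counts, 1 gene was called in AMO1 BtzR, 3 in RPMI BtzR, 4 in the libraries labelled AMO1 CfzR, and 0 in L363 BtzR, L363 CfzR and ARH77 BtzR, where 1, 1 and 2 passed by adjusted p alone and 2, 2 and 2 had an unadjusted p under 0.05 in limma. The medians were -0.08, 0.18, -0.41, -0.04, 0.04 and 0.02 in that order. Of all genes, 9.18%, 13.8%, 17.1%, 2.06%, 1.93% and 1.6% were called, in the same order. In L363 BtzR, L363 CfzR and ARH77 BtzR, 11.2%, 8.47% and 13.6% of all genes passed by adjusted p alone. An unadjusted p under 0.05 in limma was found there for 23.5%, 18.8% and 26.7%. The share of all genes called in at least 1 comparison was not computed.

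**Figure D4:**
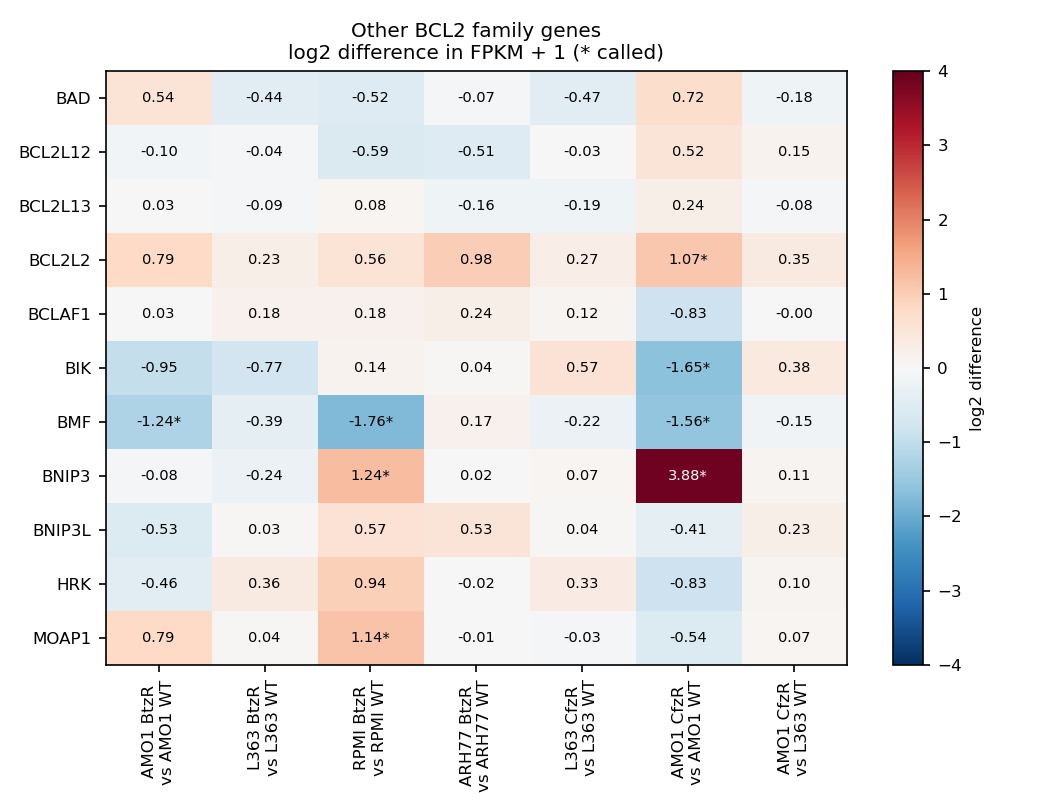
Log2 difference in FPKM + 1 of the 11 other BCL2 family genes tested (rows) in 7 comparisons (columns), with colour and number giving the difference and a star the genes called. BMF is starred in AMO1 BtzR (-1.24) and RPMI BtzR (-1.76), and the column that sets the libraries labelled AMO1 CfzR against L363 WT has no star.

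Downstream of BAX and BAK1, all 15 genes of the mitochondrial arm listed (cytochrome c, the apoptosome, caspases and their inhibitors) were tested, and 2 were called in at least 1 comparison of this kind. ENDOG, a mitochondrial nuclease, rose in AMO1 BtzR (16.96 and 20.96 FPKM against 7.10 and 9.77, 1.09), and was higher in the libraries labelled AMO1 CfzR (19.38 and 18.78) than in AMO1 WT (1.10), with 23.11 and 22.92 in L363 WT. BIRC3, an inhibitor of apoptosis that is also an NF-kappaB target, fell in L363 CfzR (14.80 and 24.91 against 34.47 and 45.62, -1.01). No gene of this list was called in L363 BtzR, RPMI BtzR or ARH77 BtzR, where 2, 7 and 1 passed by adjusted p alone and 5, 7 and 4 had an unadjusted p under 0.05 in limma. Of all genes, 2.06%, 13.8% and 1.6% were called there, and 11.2%, 54.3% and 13.6% passed by adjusted p alone. Such an unadjusted p was found for 23.5%, 58.9% and 26.7%. In AMO1 BtzR, L363 CfzR and the libraries labelled AMO1 CfzR against AMO1 WT, 9.18%, 1.93% and 17.1% of all genes were called. The list's medians ran from -0.23 in AMO1 BtzR to 0.20 in the libraries labelled AMO1 CfzR.

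In the death receptor arm, which reaches mitochondria through BID, 11 of 12 listed genes were tested. TNFRSF10B, a receptor for TRAIL, went in opposite directions: 16.17 and 16.07 FPKM in AMO1 BtzR against 36.59 and 32.66 in AMO1 WT (-1.06), and 14.02 and 23.29 in RPMI BtzR against 6.42 and 6.91 in RPMI WT (1.32). FAS, the receptor for FAS ligand, fell in L363 BtzR (0.60 and 0.91 against 3.25 and 3.60, -1.34) and in L363 CfzR (0.64 and 1.08, -1.26), and these comparisons share their WT libraries. TNFRSF1A, a TNF receptor, fell in AMO1 BtzR (0.24 and 0.09 against 2.29 and 2.89, -1.62), and TRADD, its adaptor, fell in RPMI BtzR (8.34 and 10.19 against 24.08 and 25.91, -1.35). In the libraries labelled AMO1 CfzR, FAS (-2.09), TNFRSF10B (-2.11) and TNFSF10, which encodes TRAIL (1.88), were called against AMO1 WT, and TNFRSF1A (1.49) was called against L363 WT. FAS was at 1.47 and 1.92 FPKM in these libraries and 3.25 and 3.60 in L363 WT, TNFRSF10B at 7.52 and 7.01 against 9.47 and 9.94, and TNFSF10 at 3.83 and 5.32 against 5.55 and 4.12. In counts, 2 genes were called in AMO1 BtzR, 2 in RPMI BtzR, 1 in L363 BtzR, 1 in L363 CfzR, 3 in the libraries labelled AMO1 CfzR against AMO1 WT and 0 in ARH77 BtzR, where none passed by adjusted p alone and 3 had an unadjusted p under 0.05 in limma. The medians were -0.46, 0.01, -0.04, -0.02, 0.01 and -0.09 in that order. Of all genes, 9.18%, 13.8%, 2.06%, 1.93%, 17.1% and 1.6% were called, in the same order. In ARH77 BtzR, 13.6% of all genes passed by adjusted p alone and 26.7% had an unadjusted p under 0.05 in limma.

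Of 19 listed regulators of the members' transcription or turnover, 17 were tested, and 1 was called in a BtzR comparison. Of all genes, 13.8% were called in RPMI BtzR and 17.1% in the libraries labelled AMO1 CfzR against AMO1 WT. USP13, a deubiquitinase known to stabilize MCL1 protein, rose in RPMI BtzR (23.17 and 23.18 FPKM against 8.43 and 9.21, 1.30, adjusted p = 1.2e-09), while the other 18 libraries were at 6.21 to 10.69. DDIT3 (-2.06) and ATF3 (-1.76) were lower in the libraries labelled AMO1 CfzR than in AMO1 WT. Neither was called against L363 WT, where DDIT3 was at 5.53 and 6.22 FPKM against 6.25 and 6.60 in these libraries. ATF3 was at most 1.21 FPKM in both groups. None was called in AMO1 BtzR, L363 BtzR, L363 CfzR or ARH77 BtzR, where 10, 0, 0 and 3 passed by adjusted p alone and 12, 0, 1 and 4 had an unadjusted p under 0.05 in limma. Of all genes, 9.18%, 2.06%, 1.93% and 1.6% were called there, and 51.2%, 11.2%, 8.47% and 13.6% passed by adjusted p alone. Such an unadjusted p was found for 56%, 23.5%, 18.8% and 26.7% of all genes. The medians in these 4 comparisons were 0.15, 0.0027, -0.05 and -0.11, and that in RPMI BtzR was 0.18.

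The genes whose 10 group means followed a member most closely, on log2(FPKM + 1), were listed for the 6 members that spanned at least 2 log2 units. For MCL1 they were WDR82 (Pearson r = 0.982 over 10 groups), RNF122 (0.980) and ATG3 (0.976). For BCL2L11 they were LTB4R (0.975), ZNF569 (0.965) and ZNF703 (0.965), and for BAX they were GATB (0.969), MPHOSPH6 (0.959) and TRIB3 (0.956). For PMAIP1 they were OPRL1 (0.994), RWDD1 (0.992) and DRAM1 (0.991), for BCL2A1 they were CALD1, GZMK and GPR183 (0.999 each), and for BID they were CIDEC (0.993), PPP1R16B (0.984) and IQCB1 (0.981). The groups share lines and libraries, and for BCL2A1 and PMAIP1 the correlation rests on ARH77 against the rest.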

How the data were processed

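RNA was extracted from frozen pellets and sequenced on a BGISEQ-500 by a service provider, per the labels. The authors deposited FPKM values per gene, rounded to 2 decimals, for 18305 genes with NCBI identifiers. The submitters' processing notes name HISAT2 2.0.4, Bowtie2 2.2.5 and RSEM 1.2.12, without roles, and the genome build is not given in the sources used here. Read counts were not used here, so the depth of a library is unknown. Over 69 single-transcript genes near 0, the smallest step in FPKM differed by at most 12.6% between libraries. Values well above a gene's lowest were left out before that comparison. It could therefore not show a large difference, and similar depth does not follow from it. Splitting of reads between paralogs and isoforms by the upstream tools cannot be checked.

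The FPKM values were analysed as log2(FPKM + 1) with limma 3.58.1 (R 4.3.3; group means, mean-variance trend, 10 residual degrees of freedom) on the 13089 genes averaging 1 FPKM or more in any of the groups, with Benjamini-Hochberg adjustment over all of them. Scripts were tested on simulated data. All 10 members are named. From the other lists, genes called in a comparison of a resistant group with the WT group of the same label were named, at most 5 a list, by the size of the difference. The members, the lists and the tests were chosen with earlier results of these data known. Replicates are described as biological, but nothing says how far apart they were cultured, so p-values measure the spread between these libraries. An exact permutation test of 2 against 2 libraries cannot go below p = 0.33. Alternatives were other pseudocounts (0.1, 0.01), filters (none, 5 FPKM) and scalings, no trend, a replicate block, a fit of the compared libraries alone and each library left out. Leaving out the libraries labelled AMO1 CfzR and averaging over the 3 myeloma lines were added after seeing the data. Markers of 6 cell types were checked.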

Additional observations from a re-analysis of the deposited data

Results flagged for a closer look

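For 5 members the BtzR effect differed between the 4 lines in the limma interaction test. The range over lines of the log2 difference was 1.94 for BCL2L1 (adjusted p = 0.00034), with AMO1 higher and RPMI lower. It was 1.77 for BCL2 (adjusted p = 0.0010) and 1.51 for BCL2L11 (adjusted p = 7.6e-06), where AMO1 stood above the other lines. MCL1 had a range of 1.36 (adjusted p = 3.0e-05), with AMO1 and L363 lower and RPMI higher. BAX had a range of 1.25 (adjusted p = 3.4e-05), and RPMI was the line in which it was higher. Groups of 2 libraries are too small for a search for single outlying libraries.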

How the results depend on the processing

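Counts of called members under the fold limit held within 1.5 times under all alternatives except the following. By adjusted p alone they were 6 in AMO1 BtzR, 1 in L363 BtzR, 4 in RPMI BtzR, 2 in L363 CfzR, 7 and 1 in the libraries labelled AMO1 CfzR against AMO1 WT and L363 WT, and 4 in the mean over lines. With a pseudocount of 0.1 or 0.01, 1 member was called in RPMI BtzR, BCL2A1, which was listed at 0 in RPMI WT. Leaving out single libraries gave 0 to 2 calls in RPMI BtzR (2 without RPMI BtzR replicate 1) and 0 to 1 in ARH77 BtzR (1 without ARH77 WT replicate 1). The BCL2L1 difference in AMO1 BtzR was 0.99 with each library rescaled to the same sum. Fitted on the compared libraries alone, BCL2L1 (adjusted p = 0.11) and MCL1 (0.058) in RPMI BtzR and MCL1 in L363 CfzR (0.18) no longer passed by adjusted p, and BAX in L363 CfzR fell short under most alternatives. No called difference turned in sign, and without the libraries labelled AMO1 CfzR the counts were as given.

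Same-numbered replicates correlated in their deviations from the group means at 0.12 to 0.24 in 6 comparisons and at -0.0055 in AMO1 BtzR, and nothing in the labels ties them, so the numbers were not taken as pairs. With a replicate block the count of called members stayed at 3 in AMO1 BtzR and changed in no other comparison, and by adjusted p alone BAX and BAK1 passed in ARH77 BtzR (adjusted p = 0.044 and 0.026), BAX in L363 BtzR (0.0499), BAK1 in L363 CfzR (0.048) and in the libraries labelled AMO1 CfzR against L363 WT (0.032), and BBC3 between myeloma WT and ARH77 WT (0.036).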
